A study of Homo sapiens with 12 samples.

Results

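The SR proteins are a family of splicing factors, and 10 of their genes are described here across HEK293 cultures given iron salt, oleic acid or both. The genes were taken by symbol from a gene table of 36459 symbols: SRSF1, SRSF2, SRSF3, SRSF4, SRSF5, SRSF6, SRSF7, SRSF9, SRSF10 and SRSF11. All 107 of their transcripts in a table of 188753 transcripts were included. They were chosen by family name with the gene and transcript counts of these 12 libraries already in view, and the choice names no threshold. All tests below are therefore fitted over the whole tables and describe these libraries, without being independent evidence for the choice.

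HEK293 is a human embryonic kidney cell line. The 4 groups were oleic acid + FAC, FAC, oleic acid and vehicle, with 3 libraries each, where FAC is ferric ammonium citrate, an iron salt that the study used to induce ferroptosis, and oleic acid is a monounsaturated fatty acid. Both FAC groups are set against the group with the same oleic acid treatment and no FAC, which asks what iron loading did to the SR genes and whether oleic acid altered it. The sources used here give no dose and no treatment time, and no genotype change is labelled. Nothing says whether replicates were separate cultures, so the tests measure the spread between libraries, which may be technical.

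SR proteins carry 1 or more RNA recognition motifs (RRMs), which bind short sequences in exons, and a tail rich in arginine and serine, the RS domain, which recruits the splicing machinery. Kinases of the SRPK and CLK families phosphorylate the tail and control where the proteins reside and when they act. Most SR genes also limit their own output: their proteins promote inclusion of a poison exon, a cassette exon with an early stop codon, or retention of an intron. The resulting transcripts are degraded by nonsense-mediated decay (NMD) or held in the nucleus, so each gene has coding and non-coding transcripts to follow.

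Library totals ran from 14098216 to 18717397 estimated counts, so that 3 counts, the most that a count of 0 allows, came to 0.160 to 0.213 CPM, which puts each library on the same total. All 10 genes passed the low-count filter, with 14209 genes in all, as did 76 of the 107 transcripts. Replicate 3 of oleic acid + FAC and replicate 3 of oleic acid stood apart. A gene's deviation from its group mean went with log2 transcript length across genes at r = -0.36 and -0.49 in them, against -0.20 to 0.33 in the other 10 libraries. Mitochondrially encoded transcripts took 12.1% of counts in the first of these and 3.33% to 7.50% elsewhere. Calls that turn on either library are given with and without it. The neural gene NEFL, known to be expressed in HEK293 cells, read 83.9 to 120.4 CPM, whereas markers of blood, liver, fibroblasts and endothelium reached at most 0.842 CPM (PECAM1), apart from HBA1 at up to 1.63 CPM. A lower level in every cell and a changed mix of cells cannot be told apart in such bulk RNA.

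The poison exons show how these genes can shut off their own protein, and 4 of them are printed. Transcripts with those of SRSF6, SRSF3 and SRSF7 are followed below, and that of SRSF4 is shown for the run it shares with SRSF6. Each stretch runs from the start of the exon to its first stop codon in the frame of the upstream exons, in capitals, and was read from the GENCODE 29 transcripts on GRCh38.
SRSF6-202, exon chr20:43459153-43459420, plus strand: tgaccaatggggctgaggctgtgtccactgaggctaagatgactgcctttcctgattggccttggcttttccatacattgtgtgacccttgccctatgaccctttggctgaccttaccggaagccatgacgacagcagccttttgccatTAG
SRSF4-204, exon chr1:29159864-29160058, minus strand: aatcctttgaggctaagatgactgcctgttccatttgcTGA
SRSF3-203, exon chr6:36599821-36600276, plus strand: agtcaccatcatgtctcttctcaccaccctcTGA
SRSF7-204, exon chr2:38748898-38749346, minus strand: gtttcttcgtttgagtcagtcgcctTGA
The stop codon lay within 152 bases of the exon's start in SRSF6, and within 41, 34 and 28 bases in SRSF4, SRSF3 and SRSF7. The SRSF6 and SRSF4 stretches shared an unbroken run of 20 bases, tgaggctaagatgactgcct. The longest run in any other pair of such stretches from different SR genes was 8 bases, among 31 pairs in all. The SRSF6 transcript with its poison exon took 21.2% of the gene's counts on average. The matching shares were 4.69% for SRSF7-204, 1.80% for SRSF3-203 and 0.0144% for SRSF4-204.

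Levels can be compared between genes only per length, as TPM (counts divided by transcript length and scaled to a common total). In vehicle libraries SRSF3 was the highest at 629 TPM, followed by SRSF1 at 444, SRSF2 at 416, SRSF9 at 306, SRSF7 at 284 and SRSF5 at 181. SRSF6 at 143 TPM, SRSF11 at 139, SRSF4 at 134 and SRSF10 at 129.6 formed the low end, and their vehicle libraries overlapped. SRSF1 and SRSF2 overlapped as well, at 420, 421 and 491 TPM against 440, 389 and 418 TPM. By rank, the 10 genes lay between place 195 and place 1083 of 35559 genes in vehicle.

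**Figure D1:**
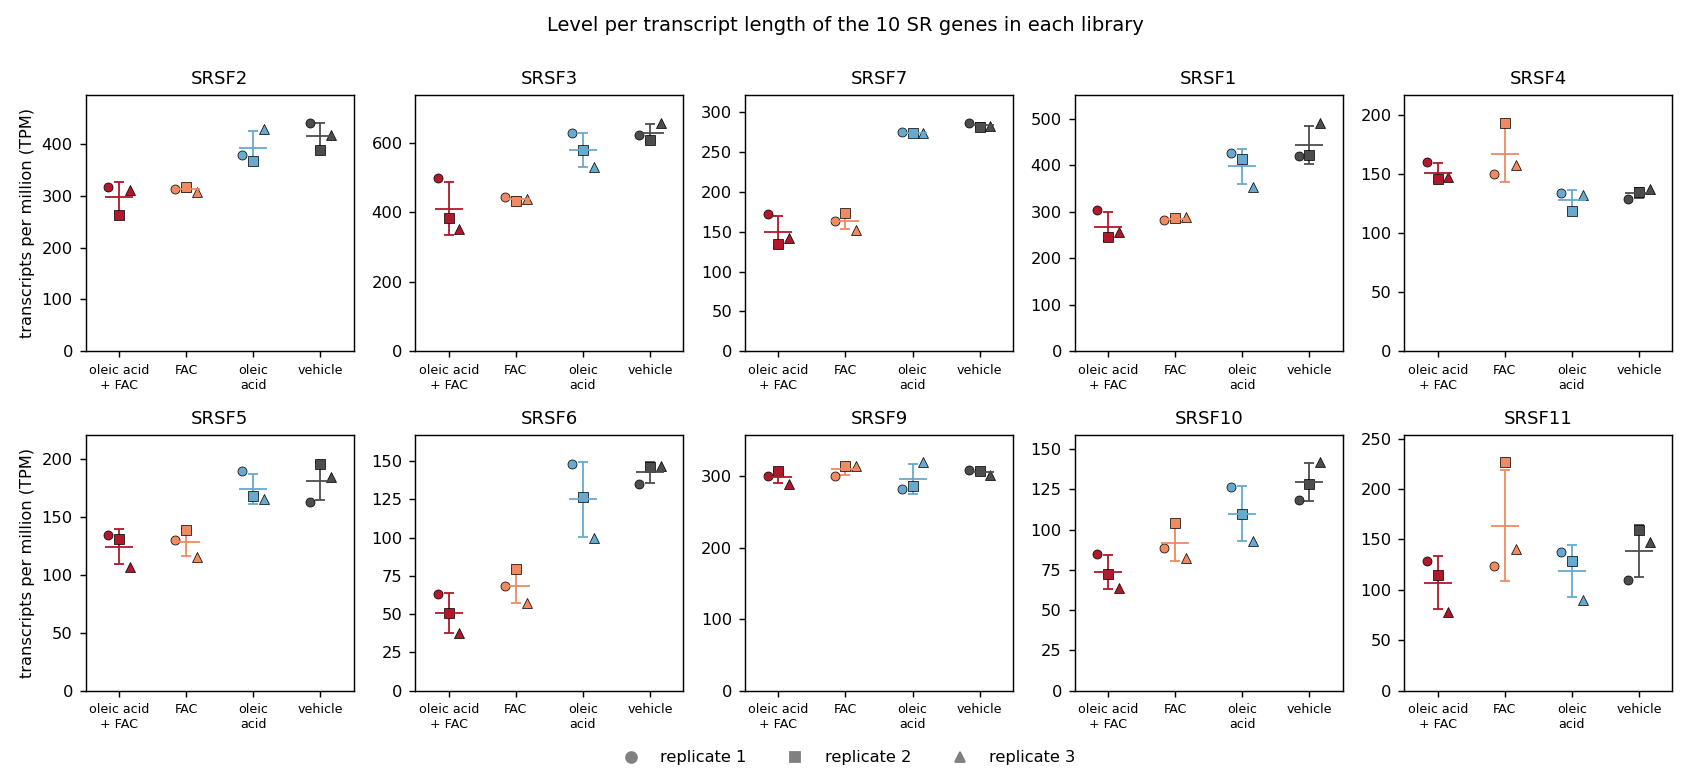
Level of each SR gene per transcript length, in TPM, for the 12 libraries, with bars for the mean ± SD of 3 libraries. SRSF6 lies at 37.4 to 79.5 TPM in the 6 libraries with FAC and at 99.9 to 148 TPM in the 6 without, whereas SRSF9 lies at 283 to 320 TPM across the 4 groups.

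On the TPM scale the 6 libraries with FAC all lay below the 6 without for SRSF1, SRSF2, SRSF3, SRSF5, SRSF6 and SRSF7, and all above them for SRSF4. Of 14039 genes, 3.17% were lower in this way and 0.456% higher. Over the genes kept, the median log2 ratio of TPM with FAC to TPM without was -0.14. Relative to that median the SR genes' ratios ran from -1.03 in SRSF6, -0.69 in SRSF7 and -0.46 in SRSF1 to 0.42 in SRSF4, and SRSF2 was at -0.26. SRSF9, SRSF10 and SRSF11 overlapped. The summed level of the 10 genes was 2163, 1847 and 1785 TPM in oleic acid + FAC and 2065, 2266 and 2053 TPM in FAC. It was 2729, 2570 and 2489 TPM in oleic acid and 2734, 2770 and 2910 TPM in vehicle, so every library with FAC was below every library without. These sums are not set relative to the median shift of -0.14, so their separation is not shown to be particular to SR genes.

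Most of the family fell with FAC and 1 member rose. Averaged over both oleic acid levels, 6 of the 10 genes fell (SRSF6, SRSF7, SRSF3, SRSF1, SRSF10 and SRSF5) and SRSF4 rose, by edgeR's quasi-likelihood test with Benjamini-Hochberg adjustment over all genes at a threshold of 0.05. Over all 14209 genes 5.48% fell and 3.27% rose by the same rule, 8.76% in all. The median log2 fold change was -0.34 over the 10 genes and 0.0045 over all genes tested. SRSF6 changed most, to 0.459 of its level without FAC. With 1 library left out, 3 to 6 of the 7 calls were kept, and SRSF6, SRSF7 and SRSF10 were among them in all 12 fits.

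Taken singly, FAC against vehicle lowered SRSF6 and SRSF7 in edgeR, where 0.732% of all genes fell, 0.457% rose and 1.19% changed in either direction. DESeq2 called 6 SR genes there and 505 of 13831 genes in all. SRSF6 and SRSF7 also fell in oleic acid + FAC against oleic acid, where 1.45% of all genes fell, 0.760% rose and 2.21% changed in all. In oleic acid + FAC against vehicle, SRSF6 fell and the others did not pass in edgeR, with 2.04% of all genes falling, 1.03% rising and 3.07% changing in all. DESeq2 called 4 SR genes in that contrast and 1248 of 12987 genes in all. A fit with the replicate block also called 4 there, and 1528 of 14209 genes in all. Fold changes in the plots and below are TMM-scaled CPM on a log2 scale.

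**Figure D2:**
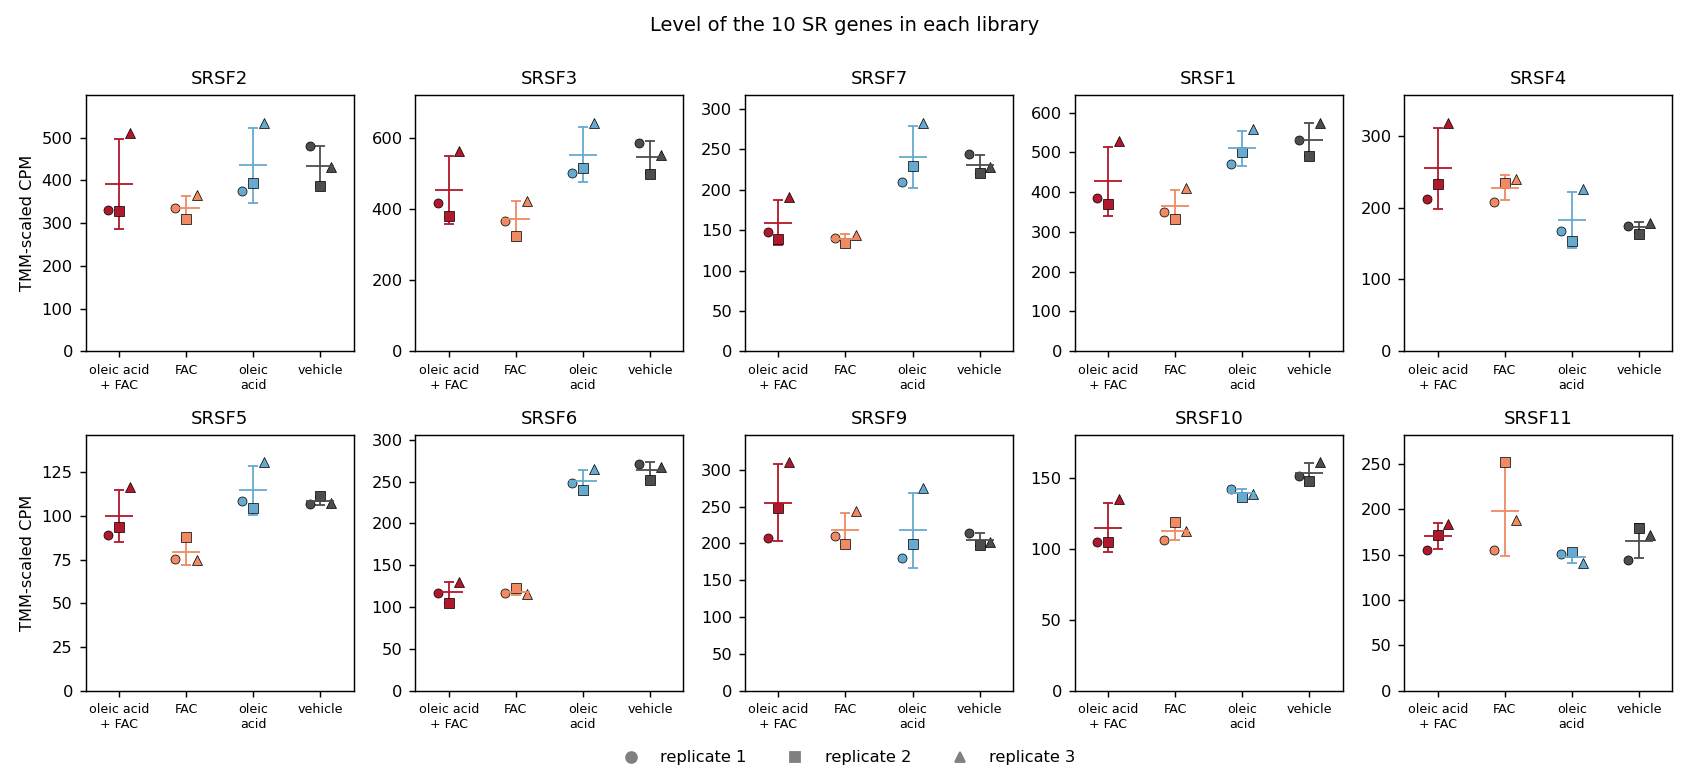
TMM-scaled CPM of the 10 SR genes in each library, ordered by protein type, with bars for the mean ± SD of 3 libraries. SRSF6, SRSF7 and SRSF10 are lower in all 6 libraries with FAC than in all 6 without, as are 4.04% of all genes. Triangles mark replicate 3, in which many of the SR genes read high in both groups with oleic acid.

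Of the genes whose proteins have a single RRM, SRSF7, whose product also has a zinc knuckle and acts in mRNA export, changed most. SRSF7 was at 148, 139.6 and 191 CPM in oleic acid + FAC and at 140.3, 134 and 144 CPM in FAC, against 209, 229 and 283 CPM in oleic acid and 244, 221 and 228 CPM in vehicle. All 6 libraries with FAC were below all 6 without, as in 4.04% of all genes. Averaged over both contrasts, the log2 fold change was -0.66 ± 0.10 (SE), with an edgeR adjusted p of 0.00159. SRSF7 fell by 0.73 in FAC against vehicle (adjusted p = 0.0252) and by 0.59 in oleic acid + FAC against oleic acid (adjusted p = 0.0460). The first of these calls was lost when any 1 of the 6 FAC and vehicle libraries was left out, with adjusted p from 0.0876 to 0.113. The second was lost without any 1 of the 12 libraries other than replicate 3 of oleic acid + FAC, up to an adjusted p of 0.185, whereas the average effect passed in all 12.

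SRSF3, the smallest family member, which also links splicing to export and polyadenylation, was at 417, 382 and 563 CPM in oleic acid + FAC and 368, 324 and 424 CPM in FAC. It was at 501, 517 and 644 CPM in oleic acid and 587, 499 and 553 CPM in vehicle. Without replicate 3 of oleic acid + FAC, the highest with FAC, the groups would not overlap. Its average log2 fold change was -0.42 ± 0.12 (SE), with an edgeR adjusted p of 0.0398. This call was lost in 10 of 12 fits with 1 library left out (adjusted p up to 0.103), the exceptions being replicate 3 of oleic acid + FAC and replicate 3 of FAC, and under another scaling (adjusted p = 0.0514). Taken singly, SRSF3 was at -0.55 in FAC against vehicle (edgeR adjusted p = 0.143). In oleic acid + FAC against oleic acid it was at -0.29 (edgeR adjusted p = 0.417).

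SRSF2, a factor that binds both C-rich and G-rich exonic sites, did not pass. It was at 332, 329 and 512 CPM in oleic acid + FAC and 335, 309.6 and 365 CPM in FAC, against 376, 394 and 535 CPM in oleic acid and 481, 387 and 431 CPM in vehicle. Apart from replicate 3 of oleic acid + FAC, every library with FAC was below every library without. With both contrasts averaged, the log2 fold change was -0.26 ± 0.13 (SE; adjusted p = 0.257), and without that library the edgeR adjusted p was 0.0478. SRSF2 shares 36.7% of its exonic bases with MFSD11 on the opposite strand, which read 10.9 to 20.0 CPM. Whether counting used the strand is not stated.

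Among the genes whose proteins have a pair of RRMs, SRSF6, an exonic enhancer-binding factor, fell most. SRSF6 was at 117, 105 and 130.3 CPM in oleic acid + FAC and at 117, 123 and 116 CPM in FAC, against 248, 239.8 and 266 CPM in oleic acid and 271, 252 and 268 CPM in vehicle. The highest library with FAC, at 130.3 CPM, was well below the lowest without, at 239.8 CPM. In 4.04% of all genes the 6 libraries with FAC were all below the 6 without. The log2 fold change was -1.15 ± 0.10 (SE) in FAC against vehicle (adjusted p = 0.000191) and -1.10 ± 0.10 in oleic acid + FAC against oleic acid (adjusted p = 0.000275). In oleic acid + FAC against vehicle it was -1.16 (edgeR adjusted p = 0.000186). In these first 2 contrasts and the average effect the call held in every alternative setting tried, with a log2 fold change from -1.18 to -1.02.

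SRSF4, which has the longest RS domain of the family, moved the other way. It was at 213, 233 and 318 CPM in oleic acid + FAC and 208, 234 and 240.4 CPM in FAC, against 167, 154 and 227 CPM in oleic acid and 175, 163 and 179 CPM in vehicle. Only replicate 3 of oleic acid reached the range of the libraries with FAC. The average log2 fold change was 0.44 ± 0.12 (SE), with an edgeR adjusted p of 0.0356. Leaving out 1 library ended this call in 10 of 12 fits (adjusted p up to 0.0940), the exceptions being replicate 1 of oleic acid + FAC and replicate 3 of oleic acid. In oleic acid + FAC against oleic acid the edgeR adjusted p of SRSF4 was 0.174, and 0.0418 with the replicate number as a block. In FAC against vehicle the edgeR adjusted p of SRSF4 was 0.346. The ratio of SRSF6 to SRSF4 CPM was 0.409 to 0.561 in the 6 libraries with FAC and 1.17 to 1.56 in the 6 without.

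SRSF1, the archetype of the family, which binds purine-rich exonic enhancers, was at 384, 371 and 528 CPM in oleic acid + FAC and 350.2, 331 and 411 CPM in FAC. It was at 471, 501 and 558 CPM in oleic acid and 530.3, 491 and 574 CPM in vehicle, so that replicate 3 of oleic acid + FAC alone reached the range of the libraries without FAC. Averaged over both contrasts, the log2 fold change was -0.40 ± 0.11 (SE), with an edgeR adjusted p of 0.0330. This call was lost in 8 of 12 fits with 1 library left out (adjusted p up to 0.0918), while the fits without replicate 3 of oleic acid + FAC, replicate 3 of FAC, replicate 1 of oleic acid or replicate 3 of oleic acid kept it. Taken singly, SRSF1 was at -0.55 in FAC against vehicle (edgeR adjusted p = 0.110). In oleic acid + FAC against oleic acid it was at -0.25 (edgeR adjusted p = 0.431). An annotated gene on the same strand, AC015813.2, covers 56.6% of the exonic bases of SRSF1 and read 2.90 to 15.0 CPM.

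SRSF5, another enhancer-binding member, was at 89.3, 93.8 and 117 CPM in oleic acid + FAC and 75.6, 87.7 and 74.6 CPM in FAC, against 109, 105 and 131 CPM in oleic acid and 107, 111 and 107 CPM in vehicle. Again replicate 3 of oleic acid + FAC alone reached into the range without FAC. Its average log2 fold change was -0.33 ± 0.09 (SE), with an edgeR adjusted p of 0.0413. This call ended in 10 of 12 fits with 1 library left out (adjusted p up to 0.110), all but those without replicate 3 of oleic acid + FAC or replicate 2 of FAC. It also ended with another scaling (0.0556) and with no low-count filter (0.0586). Taken singly, SRSF5 was at -0.45 in FAC against vehicle (edgeR adjusted p = 0.123). In oleic acid + FAC against oleic acid it was at -0.20 (edgeR adjusted p = 0.476).

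SRSF9, which has a short RS domain, averaged 256 ± 51.9 CPM in oleic acid + FAC, 218 ± 23.4 in FAC, 218 ± 50.9 in oleic acid and 205 ± 8.84 in vehicle (SD, n = 3 each). Its average log2 fold change of 0.16 ± 0.12 (SE) did not pass (edgeR adjusted p = 0.466). SRSF9 overlaps GATC on the opposite strand over 46.2% of its exonic bases.

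The remaining members differ from the classical family. SRSF10, which represses splicing when it loses its phosphates, was at 105, 105 and 135 CPM in oleic acid + FAC and 106, 119 and 113 CPM in FAC, against 142, 136 and 139 CPM in oleic acid and 152, 148 and 161 CPM in vehicle. All 6 libraries with FAC were below all 6 without, as in 4.04% of all genes. Per length they overlapped, at 63.8 to 104 TPM with FAC and 93.2 to 142 TPM without. With both contrasts averaged, the log2 fold change was -0.36 ± 0.08 (SE), and its edgeR adjusted p of 0.0148 stayed under 0.05 in each of the 12 fits with 1 library left out. In FAC against vehicle it was -0.45 (edgeR adjusted p = 0.0866), and the adjusted p was 0.0113 with DESeq2, 0.0393 with the replicate block and 0.0288 without replicate 3 of oleic acid + FAC. In oleic acid + FAC against oleic acid it was -0.27 (edgeR adjusted p = 0.256) and passed in 0 of 20 alternatives. SRSF11, which is known for microexon splicing in neurons, had an average log2 fold change of 0.24 ± 0.11 (SE; edgeR adjusted p = 0.224). Its highest library was replicate 2 of FAC at 252 CPM, and the other libraries with FAC read 155 to 188 CPM, against 140.2 to 179 CPM without FAC.

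**Figure D3:**
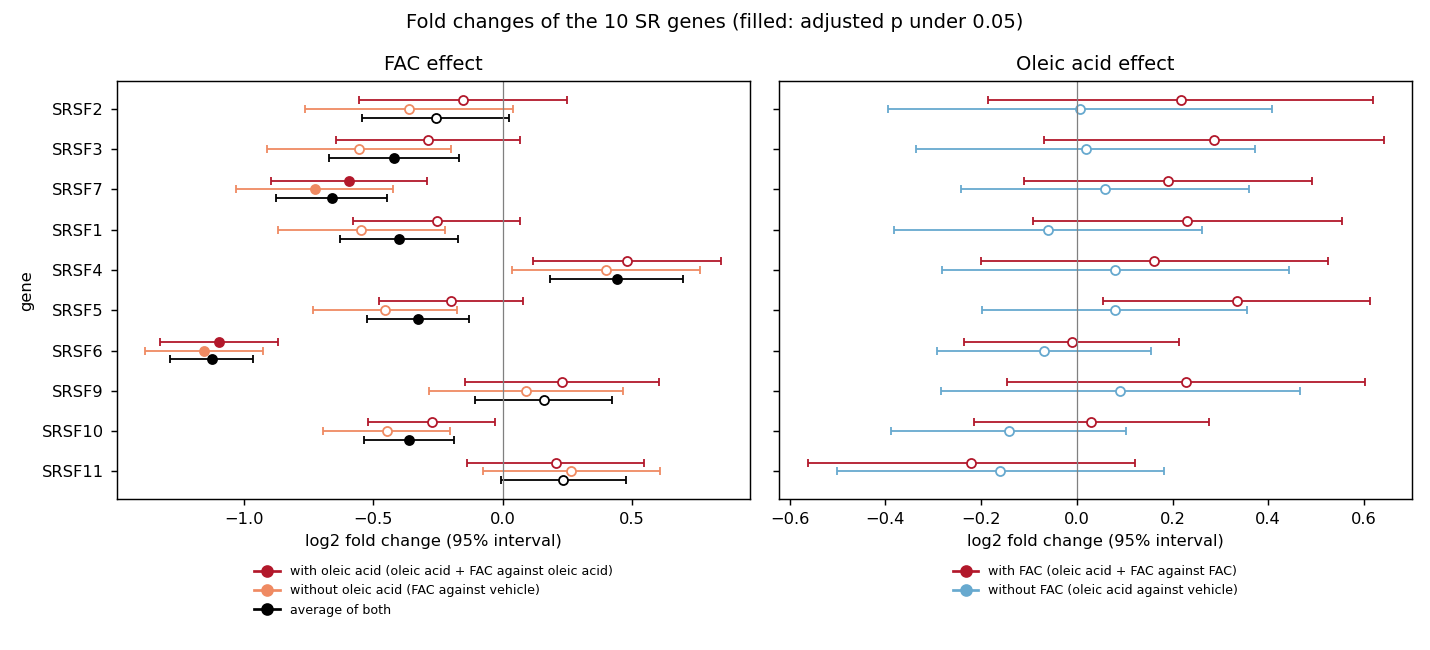
Log2 fold changes of the 10 SR genes with 95% intervals for FAC (left) and for oleic acid (right), each with and without the other agent, where filled points have an edgeR adjusted p under 0.05. SRSF6 and SRSF7 are filled on the left with and without oleic acid, and no point is filled on the right.

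Oleic acid changed none of the 10 genes by this test. In oleic acid against vehicle, edgeR called 0 of 14209 genes (0%). DESeq2 and limma-voom called none either. Before adjustment 118 genes had a p under 0.05 and no SR gene was among them. The SR genes' log2 fold changes ran from -0.16 to 0.09. SRSF6 was at -0.07 (95% interval -0.29 to 0.15) and SRSF7 at 0.06 (-0.24 to 0.36). These intervals bound the change without showing that there was none.

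In oleic acid + FAC against FAC, edgeR again called 0 of 14209 genes (0%), DESeq2 called 1 gene that is no SR gene, and 576 genes had an unadjusted p under 0.05. SRSF5 was the only SR gene among them, at 0.33 (95% interval 0.06 to 0.61; unadjusted p = 0.0224, adjusted p = 0.707). The other 9 ran from -0.22 for SRSF11 to 0.29 for SRSF3. The median over the 10 was 0.20 with all libraries and -0.0017 without replicate 3 of oleic acid + FAC and replicate 3 of oleic acid.

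The interaction of oleic acid and FAC tests whether FAC acted differently with oleic acid present. It called 0 of 14209 genes (0%) in edgeR, DESeq2 and limma-voom, with 116 genes at an unadjusted p under 0.05 and no SR gene among them. For SRSF6 the interaction was 0.06 (95% interval -0.26 to 0.37) and for SRSF7 0.13 (-0.29 to 0.56). For SRSF1 it was 0.29 (-0.17 to 0.75), the highest of the 10, so a moderate difference in the FAC effect was not detectable at this spread for several members.

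The transcript table shows which forms of each gene moved. In the average FAC effect 2 of the 76 SR transcripts that passed the filter fell, SRSF6-201 and SRSF7-202, both coding, and none rose. Over all 51464 transcripts 0.299% changed. In FAC against vehicle and in oleic acid + FAC against oleic acid 0 SR transcripts passed in edgeR, where 0.00777% and 0.0117% of all transcripts did. In these contrasts 15 and 9 of the 76 had an unadjusted p under 0.05, as did 2302 and 3159 of all 51464. By limma-voom 1 and 0 of the 76 passed, and 7 and 5 of all 51464. For oleic acid + FAC against vehicle 0 of the 76 passed in edgeR, where 0.0175% of all transcripts did. An unadjusted p under 0.05 was found there for 12 of the 76 and 4171 of all 51464, and limma-voom called 1 and 7. Both oleic acid + FAC against FAC and the interaction had 0 of the 76 called in edgeR, against 0.00194% of all transcripts each. In limma-voom they had 0 of the 76 and 0 of all 51464 called. Their SR transcripts at an unadjusted p under 0.05 in edgeR were 6 and 1, beside 2042 and 1289 of all 51464.

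SRSF6-201, the coding transcript with 78.8% of the gene's counts, was at 91.4, 77.5 and 116 CPM in oleic acid + FAC and 81.3, 84.4 and 86.5 CPM in FAC. It was at 188, 194 and 234 CPM in oleic acid and 235, 195 and 212 CPM in vehicle. The 6 libraries with FAC were thus all below the 6 without, as for 1.04% of all transcripts. The average log2 fold change was -1.23 ± 0.11 (SE; edgeR adjusted p = 0.00312). With each library's trend on transcript length removed it was -1.15 and the adjusted p 0.115.

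SRSF6-202, with the poison exon printed above, was at 28.3, 29.5 and 10.5 CPM in oleic acid + FAC and 37.0, 38.7 and 29.8 CPM in FAC. It was at 61.3, 49.2 and 28.7 CPM in oleic acid and 44.4, 59.0 and 55.6 CPM in vehicle. Its lowest library in each group with oleic acid was replicate 3. Averaged over both contrasts, the log2 fold change was -0.81 ± 0.27 (SE; edgeR adjusted p = 0.393), and -0.76 with an adjusted p of 0.0431 when replicate 3 of both groups with oleic acid was left out. With all 12 libraries the coding transcript passed the test and the poison exon transcript did not, and both means were lower with FAC.

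SRSF7-202, a coding transcript with 42.7% of the gene's counts, was at 63.2, 56.6 and 71.9 CPM in oleic acid + FAC and 61.7, 57.6 and 61.0 CPM in FAC, against 97.3, 100.3 and 121 CPM in oleic acid and 109, 96.2 and 96.7 CPM in vehicle. The 6 libraries with FAC were all below the 6 without, as for 1.04% of all transcripts, with 0.837% above. Its average log2 fold change was -0.74 ± 0.09 (SE; edgeR adjusted p = 0.0135). The adjusted p was 0.0526 to 0.0587 without replicate 2 or 3 of FAC or any 1 vehicle library, and 0.124 with the length trend removed.

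SRSF7-201, the other main coding transcript, averaged 57.5 CPM with FAC and 98.5 CPM without (n = 6 each), at a log2 fold change of -0.80 (adjusted p = 0.0662 in edgeR and 0.0496 in limma-voom). Of the NMD transcripts, SRSF7-208 averaged 13.8 CPM with FAC and 15.0 CPM without, and SRSF7-204, with the poison exon above, averaged 9.28 CPM with FAC and 8.75 CPM without. The libraries with and without FAC overlapped in both.

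**Figure D4:**
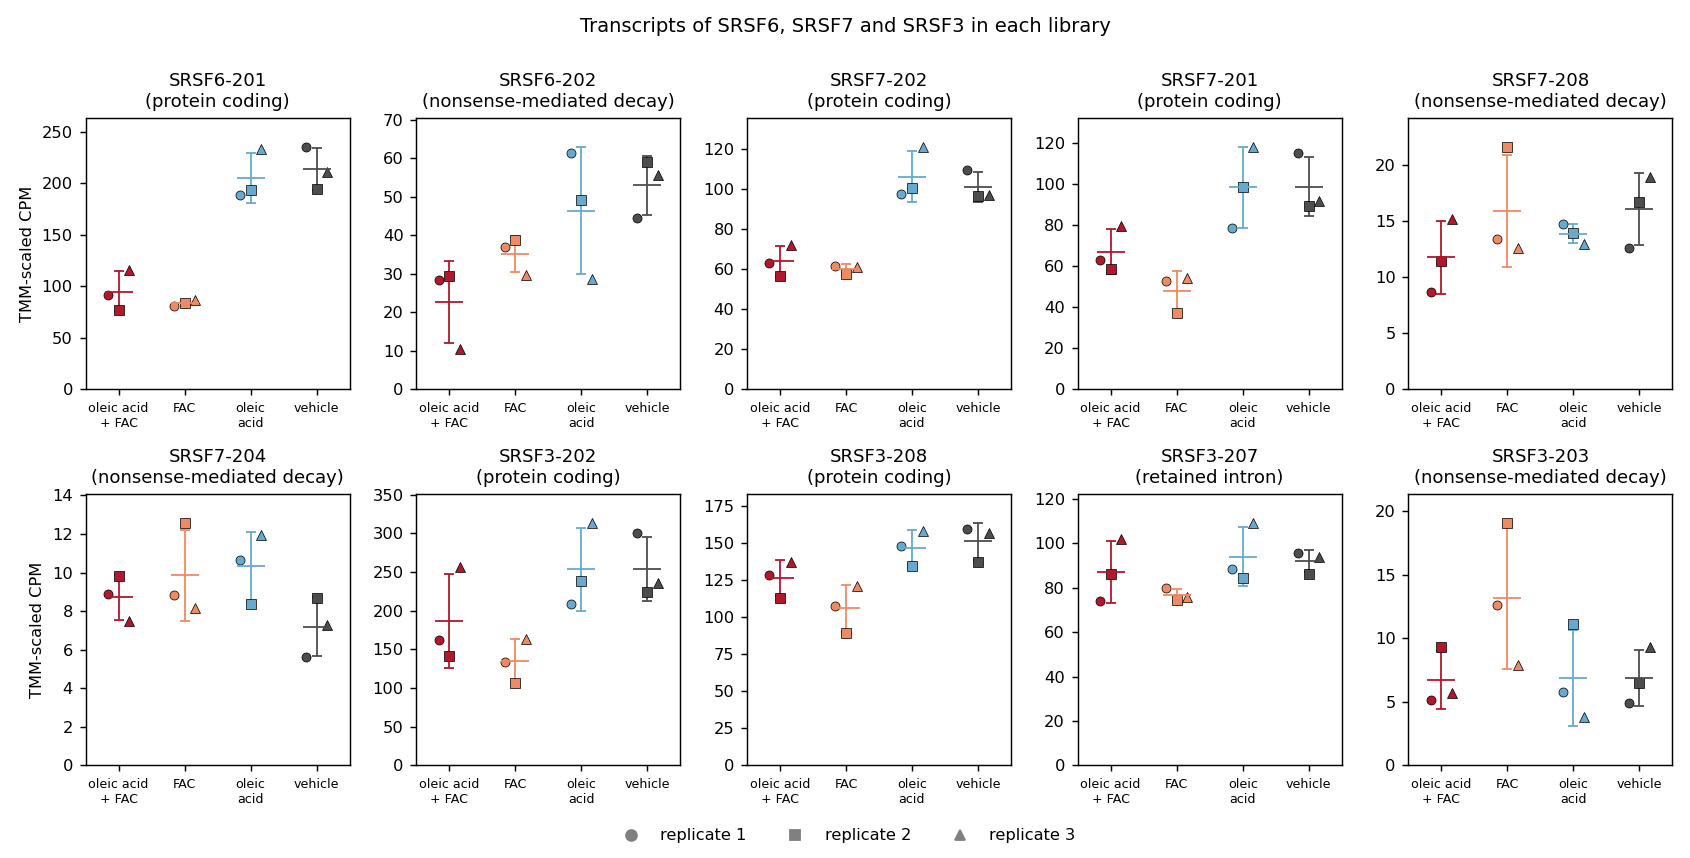
TMM-scaled CPM of transcripts of SRSF6, SRSF7 and SRSF3 by annotated type in each library, with bars for the mean ± SD of 3 libraries. The coding transcripts SRSF6-201 and SRSF7-202 are lower in all 6 libraries with FAC than in all 6 without, as are 1.04% of all transcripts. SRSF6-202, SRSF7-204 and SRSF3-203, which carry poison exons, overlap, although the mean of SRSF6-202 is lower with FAC.

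SRSF3 had a pair of main coding transcripts and a large intron-retaining one. SRSF3-202 averaged 161 CPM with FAC and 254 CPM without (log2 fold change -0.68, edgeR adjusted p = 0.230), and SRSF3-208 averaged 116 and 149 CPM (-0.36, adjusted p = 0.217). SRSF3-207, a retained-intron transcript whose annotated exon spans the poison exon and which took 18.1% of counts, averaged 82.1 CPM with FAC and 93.0 CPM without. SRSF3-203, which splices the poison exon in, was at 5.18 to 19.1 CPM with FAC and 3.84 to 11.1 CPM without, and these ranges overlapped.

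Single transcripts of the other members did not pass in edgeR with all 12 libraries. SRSF4-201, with 95.3% of its gene, averaged 233 CPM with FAC and 169 CPM without (log2 fold change 0.46, edgeR adjusted p = 0.237, and 0.0336 without replicate 3 of both groups with oleic acid). SRSF9-201, with 97.0%, averaged 230.1 CPM with FAC and 207 CPM without. SRSF10-214, a coding transcript, was lower in all 6 libraries with FAC, at 8.85 to 15.9 CPM, than in the 6 without, at 17.4 to 22.5 CPM (-0.61, adjusted p = 0.183). The same separation was seen for 1.04% of all transcripts. SRSF11-202 averaged 73.7 CPM with FAC and 51.1 CPM without (0.53, adjusted p = 0.441). For SRSF1, the coding transcripts SRSF1-205 and SRSF1-201 averaged 262 and 74.6 CPM with FAC, against 321 and 120.3 CPM without. SRSF1-201 had an edgeR adjusted p of 0.274, and 0.0450 with the replicate block.

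Of the remaining transcripts that took at least 5% of their gene, none separated the libraries with FAC from those without. SRSF2-202, the main coding transcript of SRSF2, averaged 280.3 CPM with FAC and 354 CPM without (edgeR adjusted p = 0.605), and the NMD transcript SRSF2-208 averaged 42.0 and 45.8 CPM. SRSF5-217, the main coding transcript of SRSF5, averaged 35.3 CPM with FAC and 50.3 CPM without (adjusted p = 0.427). SRSF10-203 averaged 39.2 CPM with FAC and 53.1 CPM without (adjusted p = 0.141), and 0.0328 was its adjusted p without replicate 3 of oleic acid + FAC. The retained-intron transcript SRSF3-206 averaged 31.5 CPM with FAC and 41.4 CPM without (adjusted p = 0.451), and the coding transcript SRSF11-203 averaged 46.9 and 41.6 CPM.

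The NMD transcript SRSF1-206 depended on the libraries that stand apart. It was at 0.899 CPM in replicate 3 of oleic acid + FAC and 4.87 CPM in replicate 3 of oleic acid. The other 5 libraries with FAC ranged from 51.5 to 60.2 CPM and the other 5 without from 60.0 to 99.6 CPM. These libraries also differ from the rest in their length trend. Over 18 alternative fits, among them the fit with that trend removed, the average log2 fold change of SRSF1-206 ran from -0.84 to -0.27. It passed in none of them. The part of the length trend in the CPM values themselves was not tested.

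Isoform make-up was tested apart from level, as the share of each gene's counts on transcripts not annotated as protein coding, which hold the NMD, intron-retaining and other processed forms. For SRSF3 the share was 31.7%, 34.4% and 28.3% in oleic acid + FAC and 35.0%, 39.6% and 33.4% in FAC, against 29.3%, 28.8% and 25.8% in oleic acid and 24.2%, 28.1% and 28.9% in vehicle. Except for replicate 3 of oleic acid + FAC, every library with FAC was above every library without. The means were 33.8% with FAC and 27.5% without (exact permutation test, two-sided, p = 0.00866, unadjusted over 10 genes tested; 6 against 6 libraries can give no p below 0.00216).

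For SRSF7 the share was 12.8%, 15.8% and 12.8% in oleic acid + FAC and 16.6%, 27.1% and 15.6% in FAC, against 13.2%, 10.1% and 9.85% in oleic acid and 7.69%, 12.7% and 12.4% in vehicle. The ranges touched at 12.8% to 13.2%. The means were 16.8% with FAC and 11% without (exact permutation p = 0.00866, unadjusted). In SRSF7 the coding sum was 98 to 162 CPM with FAC and 183 to 252 CPM without, whereas the non-coding sum was 19.4 to 36.4 CPM and 19.4 to 28.3 CPM. In SRSF3 the coding sum was 196 to 393 CPM with FAC and 356 to 471 CPM without, and the non-coding sum 129 to 155 CPM and 141 to 164 CPM.

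**Figure D5:**
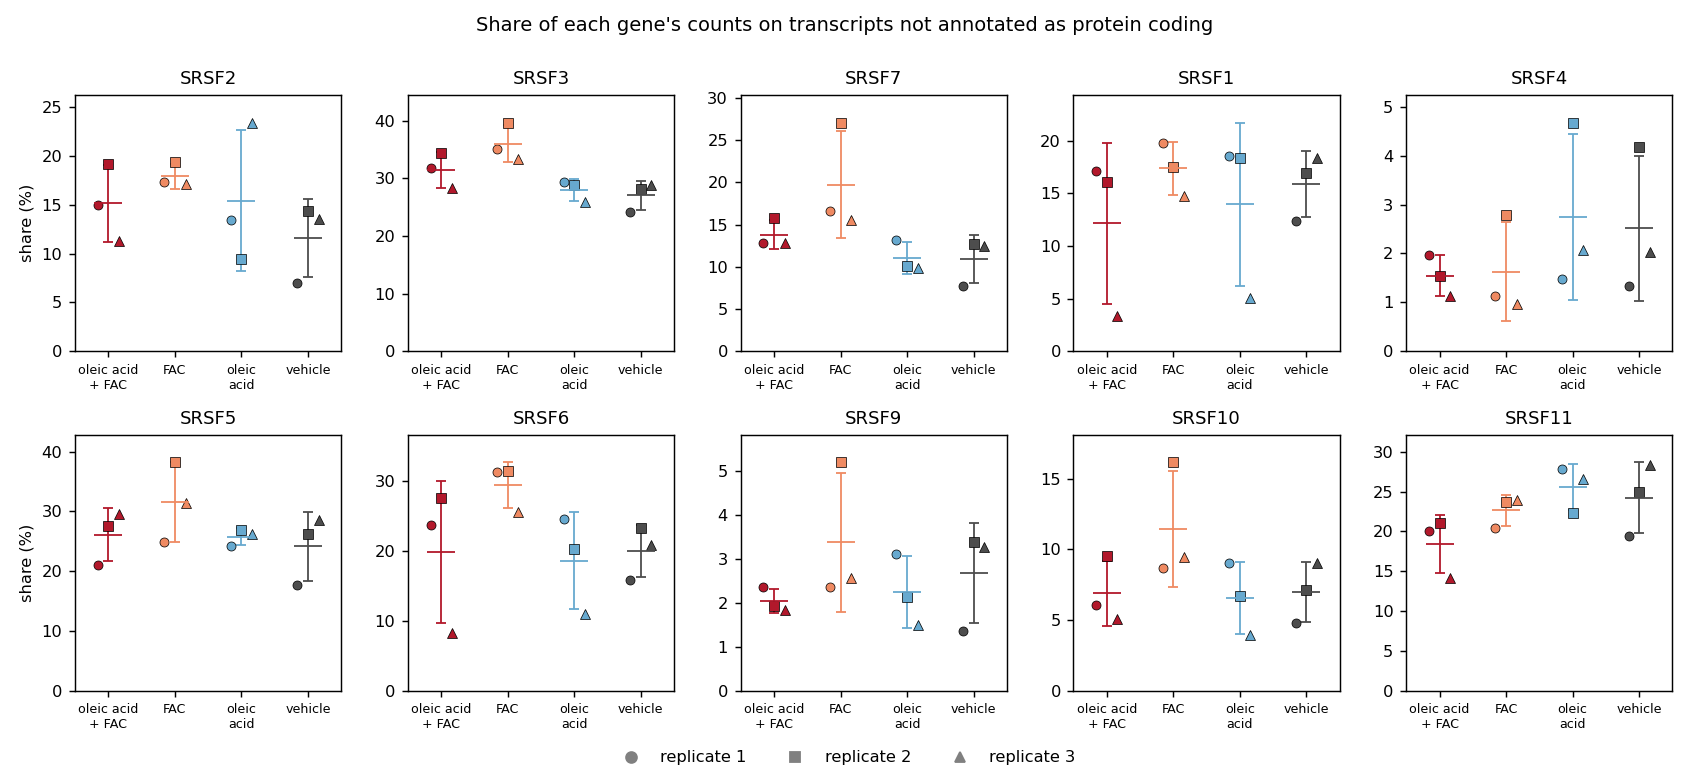
Share of each SR gene's counts on transcripts not annotated as protein coding, in percent, for each library, with bars for the mean ± SD of 3 libraries. For SRSF3 the 3 FAC libraries, at 33.4% to 39.6%, are above all 6 libraries without FAC, at 24.2% to 29.3%.

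No SR gene's isoform ratio passed the test over all genes, which does not show that isoform make-up stayed the same. The log2 ratio of non-coding to coding counts, tested with limma over 6308 genes, changed by 0.42 ± 0.13 (SE) in SRSF3 (unadjusted p = 0.00708, adjusted p = 0.558) and by 0.68 ± 0.24 in SRSF7 (0.0154, adjusted p = 0.645) in the average FAC effect. Limma called 0 of the 6308 genes in it (0%), of which 379 had an unadjusted p under 0.05, and in oleic acid + FAC against oleic acid 1 gene, no SR gene (0.0159%). The median ratio change was 0.33 over the 10 SR genes and 0.0047 over all genes. Both contrasts behind that average are also given singly. The SR median was 0.57 in FAC against vehicle, with 8 of 10 genes positive, and 0.017 in oleic acid + FAC against oleic acid, with 6 of 10 positive. Over all genes the medians were 0.071, with 3522 of 6308 positive, and -0.068, with 2897 of 6308 positive. The interaction was negative in 10 of 10 SR genes and in 3597 of 6308 genes in all, with a median of -0.52 against -0.15 over all genes. Limma called 0 of 6308 genes in it (0%), of which 146 had an unadjusted p under 0.05 and none was an SR gene. These genes were read in the same libraries, so their signs are not independent. Within oleic acid + FAC, replicate 3 had the lowest share in SRSF1 (3.36%) and SRSF6 (8.28%), but the highest in SRSF5 (29.6%). Within FAC, replicate 2 had the highest share in SRSF7 (27.1%) and SRSF5 (38.2%), but not in SRSF1 (17.6%). What single libraries contribute to the median was not tested. No SR gene's share separated the 6 libraries with FAC from the 6 without, as 0.38% of genes did downward and 0.396% upward. Scaled by transcript length, the SRSF3 share was 38.3% with FAC and 34.9% without (exact permutation p = 0.149), and the SRSF7 share 12.7% and 8.62% (p = 0.0216).

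The other 8 genes had shares from 1.59% with FAC and 2.63% without in SRSF4 to 28.8% with FAC and 24.9% without in SRSF5. SRSF6 was at 24.6% with FAC and 19.3% without (exact permutation p = 0.219), with its lowest values, 8.28% and 10.9%, in replicate 3 of oleic acid + FAC and replicate 3 of oleic acid. The other 5 libraries with FAC read 23.7% to 31.4% and the other 5 without 15.9% to 24.6%. SRSF11 was at 20.5% with FAC and 24.9% without (exact permutation p = 0.0541). SRSF1 was at 14.8% with FAC and 14.9% without (exact permutation p = 0.946). The ratio in oleic acid + FAC against FAC was lower in 9 of the 10 genes and in 3602 of 6308 genes in all. The median was -0.49 over the 10 genes, against -0.13 over all genes. Limma called 0 of 6308 genes (0%), of which 305 had an unadjusted p under 0.05 and none was an SR gene. What single libraries contribute to this median was not tested either.

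Relatives and regulators of the family were read from lists, in the average FAC effect, in which 3.27% of all genes rose and 5.48% fell. Of the family members outside the 10, SRSF8, a retrogene of SRSF2, fell to 34.7 to 40.8 CPM with FAC, against 44.0 to 54.1 CPM without (average log2 fold change -0.43, edgeR adjusted p = 0.00431), and SRSF12 did not pass. Reads shared by SRSF8 and SRSF2 could be split between them in the authors' estimates, which was not tested. Of 26 SR-like and SR-related proteins 4 rose and 4 fell, a list that includes SRSF8 and SRSF12. RSRC2 rose by 1.20 and RSRP1 by 1.06, SREK1, a splicing regulator, by 0.58, and LUC7L3, a relative of a U1 snRNP component, fell by 0.73. LUC7L2, on the same list, was higher in all 6 libraries with FAC (133 to 175 CPM) than in the 6 without (96.3 to 115 CPM). That separation was seen in 2.80% of all genes, and LUC7L overlapped. The SREK1 call ended without replicate 2 of oleic acid + FAC (edgeR adjusted p = 0.0561).

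Of the kinases, phosphatases and transport factors that act on SR proteins 15 of 16 were tested, of which 4 rose and 1 fell, beside 3.27% and 5.48% of all genes. CLK3 rose to 58.3 to 74.6 CPM with FAC, against 22.4 to 26.1 CPM without (log2 fold change 1.47, edgeR adjusted p = 2.54e-06). CLK4 rose by 1.32 and CLK1 by 0.72, and DYRK1A, which also phosphorylates splicing factors, by 0.32 (adjusted p = 0.0146, and 0.0515 without replicate 2 of vehicle). For CLK1, CLK3 and CLK4 the libraries with FAC did not overlap those without, as in 2.80% of all genes in this direction. The median of the list was 0.10.

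Among NMD factors and exon junction proteins 0 of 15 rose and 1 fell in edgeR, SMG5 (-0.55, adjusted p = 0.0109), so the share that fell was near the 5.48% of all genes. Before adjustment 4 of the 15 had a p under 0.05, as did 3344 of 14209 genes in all. DESeq2 and limma-voom counts for this list were not computed. Of 14 transcripts known to be sensitive to NMD 9 were tested, of which RBM39 rose by 0.32 and SMG5, which is on both lists, fell. The RBM39 call was lost in 9 of 12 fits with 1 library left out (edgeR adjusted p up to 0.0728) and with no low-count filter (0.0551). Of 18 hnRNP genes, whose proteins often oppose SR proteins at splice sites, HNRNPL alone rose (0.32, edgeR adjusted p = 0.0329), beside 3.27% of all genes, and the list's median was 0.21. That call was lost in 8 of 12 fits with 1 library left out (edgeR adjusted p up to 0.0947) and with no low-count filter (0.0596).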

How the data were processed

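RNA from 12 HEK293 libraries was selected by poly-A pull-down, per the labels' protocols, with an RNA integrity number of 10 throughout. Tools listed in the submitters' processing notes are kallisto 0.46.1, sleuth 0.30.0 and bcl2fastq 2.19, on build GRCh38.p12 (hg38). The deposited tables hold the authors' estimated counts from kallisto, per the labels, with 1 table of gene symbols and 1 of transcripts. All values were already whole, so rounding changed none. For each SR gene the gene count and its summed transcript counts differed by at most 2. Which annotation the authors used, and whether counting used the strand, is not given in the sources used here.

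Types, exons and lengths came from GENCODE 29 by transcript ID without its version, which matched 90.0% of transcripts and 97.6% of their counts. Of the 107 SR transcripts 6 carry another version. TPM was computed from these lengths. Tests used R 4.3.3 and edgeR 4.0.16 (filterByExpr, TMM scaling, quasi-likelihood F test, 4 group means, all 12 libraries), with Benjamini-Hochberg adjustment over all genes or transcripts and a threshold of 0.05. The SE is the log2 fold change divided by the root of F, and 95% intervals use the fit's degrees of freedom. The average FAC effect is the mean of both FAC contrasts. Isoform ratios were tested with limma 3.58.1 on log2((non-coding + 0.5)/(coding + 0.5)), for genes with a mean of at least 10 counts in each class. Shares were compared by exact permutation of the 6 libraries with FAC and the 6 without. DESeq2 1.42.0, limma-voom, other scalings and filters and left-out libraries were alternatives. The edgeR fits of genes and transcripts and the limma fit of isoform ratios were tested on simulated data for the average FAC effect, and the other steps were not.

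The members and lists were chosen with earlier results of these data known. All 10 genes are described. Transcripts are described singly where they took at least 5% of their gene's counts, and the main ones are given with values, together with the rarer poison exon transcripts of SRSF7 and SRSF3. List members named are the up to 4 that passed with the largest average FAC effect, with LUC7L2 and LUC7L named beside LUC7L3. The 3-count limits cover counting error only. Nothing in the labels says what a replicate number marks. Deviations of same-numbered replicates correlated over 0.1 in all 3 pairs of oleic acid + FAC with oleic acid, at 0.26 to 0.58. The value of 0.58 was between the replicate 3 libraries that stand apart. All 3 pairs of oleic acid + FAC with FAC (0.19 to 0.31) and of FAC with oleic acid (0.15 to 0.30) were over 0.1 too. So were 2 of 3 pairs of FAC with vehicle, and 1 of 3 pairs of oleic acid or oleic acid + FAC with vehicle. The main tests treat no groups as paired, and the replicate number enters only as a block in alternative fits.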

Additional observations from a re-analysis of the deposited data

How the results depend on the processing

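SRSF6 passed in FAC against vehicle, in oleic acid + FAC against oleic acid and in the average FAC effect under every alternative, and SRSF7 and SRSF10 passed in the average effect under all 19. Other calls depended on the setting, and the cause was not tested. In FAC against vehicle the count of SR genes, 2, was 6 with DESeq2, 5 with the replicate block, 7 without replicate 3 of both groups with oleic acid (these 2 libraries stand apart), 6 with only the 6 libraries compared, 5 with the length trend removed, and 1 to 4 with 1 library left out. Over all genes, edgeR called 169 of 14209 there, DESeq2 505 of 13831 and the replicate block 431 of 14209. In oleic acid + FAC against oleic acid the count of SR genes, 2, was 1 with relative log expression scaling and with only the 6 libraries compared, and 1 to 2 with 1 library left out. The average effect, with 7, gave 3 to 7 with 1 library left out, of which 3 to 6 were among the 7. In oleic acid + FAC against vehicle the count of SR genes, 1, was 4 with DESeq2, with the replicate block, with the length trend removed and without those 2 libraries, and 1 to 4 with 1 library left out. Over all genes, edgeR called 436 of 14209 there, DESeq2 1248 of 12987 and the replicate block 1528 of 14209. For SR transcripts, FAC against vehicle gave 1 with limma-voom and 2 without those 2 libraries, against 0. The average effect, with 2, gave 0 after removal of the length trend and 5 without those 2 libraries, and 1 to 3 with 1 library left out. Oleic acid + FAC against oleic acid gave 1 without those 2 libraries, and oleic acid + FAC against vehicle 1 there and with limma-voom, against 0. With 1 library left out these 3 transcript counts were 0 to 1. Of all 51464 transcripts, limma-voom called 7 in FAC against vehicle, where edgeR called 4. In oleic acid + FAC against vehicle limma-voom called 7 and edgeR 9. Besides the counts above, the replicate block gave 3 against 2 SR genes in oleic acid + FAC against oleic acid (740 against 314 of all 14209 genes). It gave 3 against 2 SR transcripts in the average effect (147 against 154 of all 51464 transcripts). The remaining counts of SR calls were unchanged with the block. For the other settings no counts over all genes or transcripts are given here.

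Signs turned in values that never passed. Across fits with 1 library left out, the log2 fold change of SRSF2 in oleic acid + FAC against oleic acid ran from -0.39 to 0.023. In the average FAC effect it ran from -0.034 to 0.28 for SRSF2-203, -0.32 to 0.31 for SRSF2-208, -0.22 to 0.58 for SRSF5-201, -0.063 to 0.75 for SRSF5-212, -0.11 to 0.17 for SRSF11-201, -0.0043 to 0.29 for SRSF11-203, -0.19 to 0.12 for SRSF11-204 and -0.38 to 0.067 for SRSF11-208. The isoform ratio ran from -0.43 to 0.34 for SRSF1 and -0.083 to 0.27 for SRSF9. SRSF2-208 was at 0.021 with limma-voom and 0.46 without those 2 libraries, SRSF5-201 at -0.63 with limma-voom, SRSF11-204 at 0.016 with the length trend removed and SRSF11-201 at -0.056 without those 2 libraries. Divided by length, the SRSF1 isoform ratio was 0.039 and its share 1.03 percentage points higher with FAC. With NMD transcripts only the SRSF5 ratio was -0.97.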
